A study of Mus musculus with 16 samples.

Results

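Transcripts of Trp53 and of 4 genes that act back on its protein, Mdm2, Mdm4, Ccng1 and Ppm1d, were followed in mouse embryonic stem cells after auxin was added to a degron line for Ddx10. The 5 genes were taken by symbol from a table of 14552 genes in normalized counts, and all 5 were among the 13355 genes with a mean of at least 10 that were tested. The cells were E14, an established mouse embryonic stem cell line, of the genotype Ddx10-AID, Tir1 in every library: Ddx10, which encodes a DEAD-box RNA helicase, carried an auxin-inducible degron, and Tir1 is the plant F-box protein that hands a tagged protein to the ubiquitin system when auxin is present. There were 7 groups that received 500 µM indole-3-acetic acid (auxin), for 2, 4, 6 or 12 h, for 1 or 2 days, or for 2 days followed by 2 days without it (withdrawal), and 1 untreated group. Each of the 8 groups had 2 libraries. All groups grew on gelatin in medium with serum, LIF, 3 µM CHIR99021 and 1 µM PD0325901. The labels do not say whether the line was 1 clone or whether replicates were grown separately. The p-values therefore judge differences between groups against the scatter between these libraries, and that scatter may be technical. Cells without the tag under auxin were not analysed here, so effects of auxin and of losing DDX10 cannot be told apart.

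As background, p53 is a transcription factor whose activity is set mostly by how fast its protein is degraded. MDM2 is the ubiquitin ligase that marks p53 for degradation, and MDM4 is its relative that binds the p53 activation domain and pairs with MDM2. Cyclin G1 works with the phosphatase PP2A on MDM2, and WIP1, the product of Ppm1d, is a phosphatase that removes activating phosphates from p53 and from the kinases upstream of it. Several of these genes are direct targets of p53, which closes negative feedback loops. In embryonic stem cells p53 can also restrain genes of the undifferentiated state. Ribosomal proteins that are not built into ribosomes can bind MDM2 and block it. Transcript levels say nothing directly about the amount of p53 or MDM2 protein, which was not measured.

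The libraries held an estimated 13.6 to 17.5 M reads on the genes of the table, judged from the step between low values. The member with the fewest reads in any library, Ppm1d after withdrawal, had an estimated 543, which gives a counting error of 4.29%. Replicates of untreated cells and of cells at 1 day lay further apart than those of other groups, with an SD over genes of the log2 difference of 0.62 and 0.53. In the libraries of 2 to 12 h, 424 of the 13355 tested genes lay above and 591 below all other libraries. None of the 5 members was among these 1015 genes, which at that share says little about the members. Markers of embryonic stem cells were present in all groups, with 8 of 8 in the table and a summed level of 82932 to 100614. Of 6 fibroblast markers 2 were in the table, with a sum of at most 108. Of 6 trophoblast markers 5 were in the table, and their sum was 1508 to 1776 in untreated cells, 1733 to 2193 from 2 h to 1 day, 2348 to 2442 at 2 days and 1626 to 1684 after withdrawal. Of 7 primitive endoderm markers 6 were in the table, and their sum was 834 to 1910.5 in untreated cells, 2423 to 2506 at 2 h, 2579 to 2665 at 4 h, 2771 to 2774 at 6 h, 1987 to 1999.7 at 12 h, 3377 to 3522 at 1 day, 5622 to 6199 at 2 days and 2018 to 2061 after withdrawal. That sum is mostly Col4a1 and Lama1, which reached 3338 and 2733 in their highest libraries. Gata4, Gata6, Sox17 and Dab2 reached at most 44.4, 24.0, 13.7 and 57.9 in any library. The part of either list in the results was not tested, and fewer cells of a type and less RNA per cell cannot be told apart in these bulk samples. Ddx10 transcripts lay between 1019 and 1947 as group means, but auxin acts on the protein, so this does not check the labels.

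The sequences shown here hold matches to the p53 half-site, the 10-base element of which the full 20-base site has 2. Windows from 250 bases before to 50 after each gene's start (RefSeq, GRCm38.p6) were searched on both strands, and 8.36% of all 32851 windows held an exact half-site. Exact half-sites were found in the windows of 4 of the 5 members, and the 2 windows of Mdm4 held none. Capitals mark the half-site, and each line gives the coding strand:
Trp53 (chr11:69580274-69580303, + strand): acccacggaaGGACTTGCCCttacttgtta
Mdm2 (chr10:117710925-117710954, - strand): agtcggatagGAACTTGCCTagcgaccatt
Ppm1d (chr11:85311112-85311141, + strand): gggcgggggcGAGCTTGCTCttcttgactc

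The Ccng1 window held a 20-base full site with 1 mismatch to the consensus, which 0.0883% of windows had. It is in capitals in the 250 bases before the start (chr11:40755287-40755536, - strand) and ends 175 bases before it:
Ccng1: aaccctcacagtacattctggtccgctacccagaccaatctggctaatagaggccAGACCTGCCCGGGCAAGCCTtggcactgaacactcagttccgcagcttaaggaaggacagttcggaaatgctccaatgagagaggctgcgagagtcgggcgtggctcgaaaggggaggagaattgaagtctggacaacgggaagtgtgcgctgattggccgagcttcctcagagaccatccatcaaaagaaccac
The known p53 response region of Mdm2 lies in its first intron, where a second set of transcripts starts. In the annotated first exon of such a transcript (GENCODE M21, GRCm38), inside intron 1 at chr10:117710029-117710551, 2 full sites with 3 mismatches each lay 18 bases apart on the - strand:
Mdm2 site at chr10:117710105-117710124: GGTCAAGTTGGGACACGTCC
Mdm2 site at chr10:117710067-117710086: AGCTAAGTCCTGACATGTCT
A full site with up to 3 mismatches was in 6.29% of all windows, among them that of Trp53 and 1 of the 2 of Mdm4. Only for Mdm2 was sequence outside the promoter windows searched, and no share over other genes was computed for that exon. A match is a string of letters and not evidence that p53 was bound there. The search for full sites was added after the data had been seen.

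Under auxin all 4 feedback genes rose. Mdm2 and Ccng1 passed the test against untreated cells at every time from 2 h to 2 days, Mdm4 from 4 h to 2 days, and Ppm1d from 4 h to 1 day. Trp53 itself passed as lower at 12 h and as higher at 1 and 2 days. At 2 h, 2 of the 5 members were called higher by limma at an adjusted p below 0.05, against 6.75% of all tested genes. The number called higher was 4 of 5 at 4 h (8.86% of all tested genes), 4 at 6 h (10.9%), 4 at 12 h (14.8%), 5 at 1 day (15.9%) and 4 at 2 days (21.0%). At 12 h 1 member, Trp53, was called lower, against 18.3% of all genes. All comparisons with untreated cells share the same 2 untreated libraries. In an F-test for any difference among the 8 groups all 5 were called, against 68.6% of all tested genes, and Ccng1 had the smallest p of the 13355 (adjusted p = 3.2e-09).

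**Figure D1:**
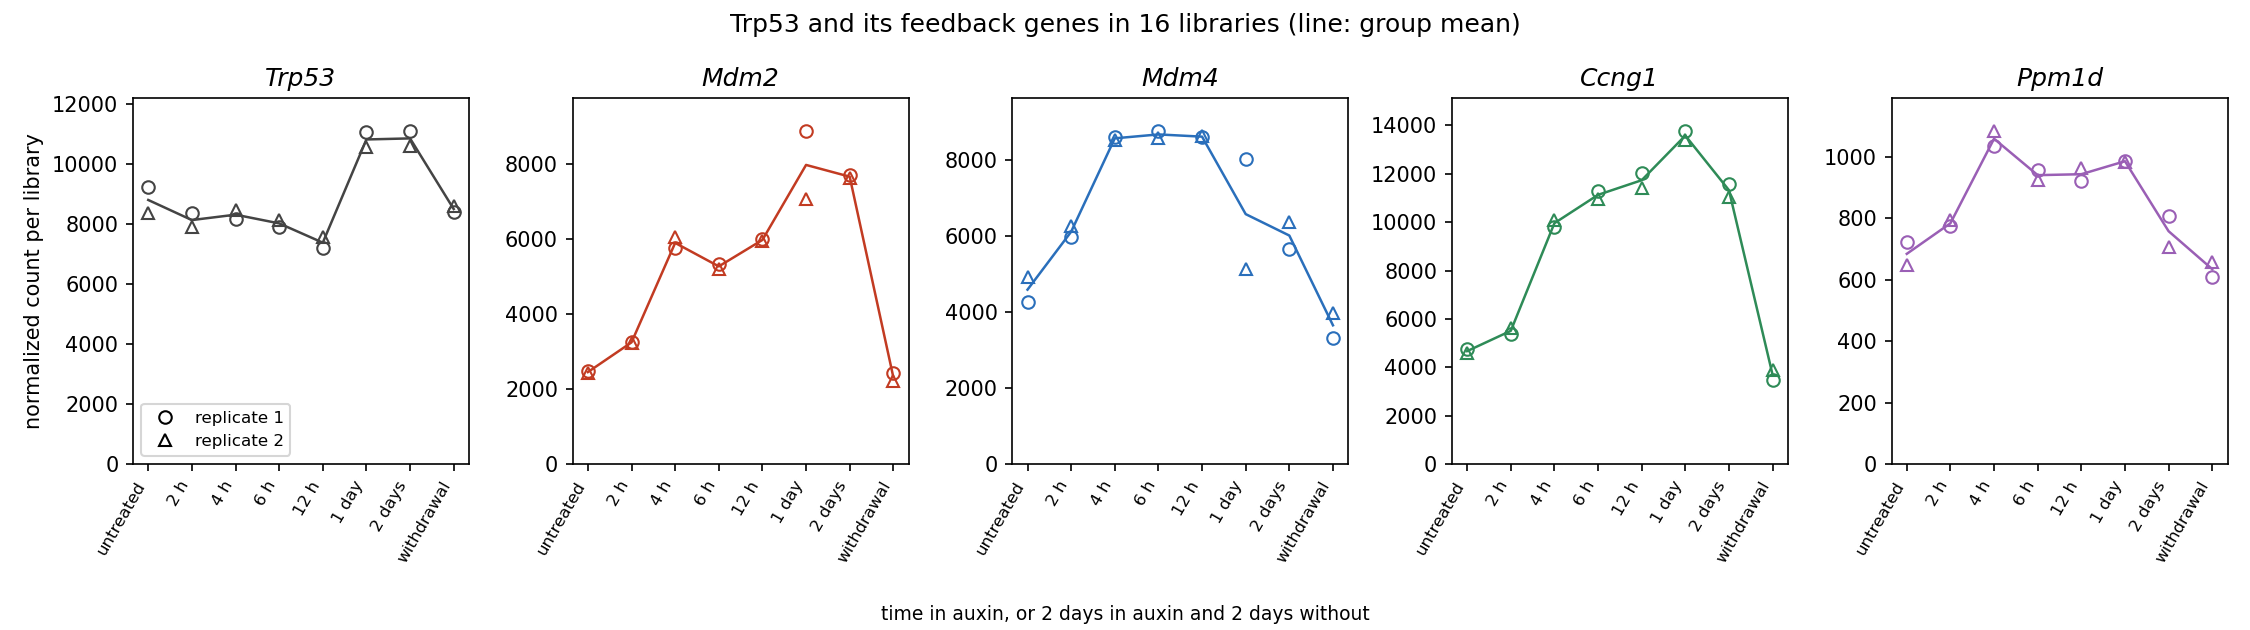
Normalized counts of Trp53, Mdm2, Mdm4, Ccng1 and Ppm1d in each of the 16 libraries (circles, replicate 1; triangles, replicate 2) by group, with a line through the group means and a linear axis from 0 in each panel. The means of Mdm2 and Ccng1 are highest at 1 day, where the Mdm2 libraries overlap those of 2 days. Mdm4 runs level from 4 to 12 h, and Mdm4 at 1 day has the widest gap between replicates, 8014 against 5138.

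Trp53 (ENSMUSG00000059552, GRCm38 chromosome 11, 69580359 to 69591873, + strand) moved little in the first hours. Values were 9228 and 8372 in untreated cells, 8373 and 7888 after 2 h, 8159.8 and 8461 after 4 h, and 7893 and 8147 after 6 h. Changes against untreated cells at these 3 times lay between -0.13 and -0.08 on the log2 scale and did not pass (limma adjusted p = 0.15 to 0.41). The 6 h value passed as lower without untreated replicate 2 and with trends of transcript length and GC content removed (-0.20 each). The 95% intervals of the log2 change ran from -0.25 to 0.02 at 2 h and from -0.27 to 0.01 at 6 h. At 12 h the libraries were at 7190.1 and 7564, below every other library of the series. Trp53 was then lower than in untreated cells by -0.25 ± 0.06 (log2 change ± SE, limma adjusted p = 0.0078), a call that did not hold without untreated replicate 1 (-0.18), without 12 h replicate 1 (-0.22) or with the 2 groups fitted alone. Against 2 h the 12 h value was -0.14 (limma adjusted p = 0.13), and it was -0.23 and called with the length and GC trends removed.

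From 12 h to 1 day Trp53 rose. Values of 11069 and 10565 after 1 day, and of 11089.9 and 10615 after 2 days, were all above every library of the other 6 groups. The change against 12 h was 0.55 ± 0.06 (log2 ± SE, limma adjusted p = 8e-05) and kept its call under every alternative tried. Against untreated cells it was 0.30 ± 0.06 both at 1 day (limma adjusted p = 0.0027) and at 2 days (limma adjusted p = 0.0016), a 1.23-fold difference at each time. The call at 1 day was lost when the 2 groups were fitted alone. After withdrawal Trp53 was at 8409.9 and 8587, within the range of the untreated libraries.

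Mdm2 (ENSMUSG00000020184, chromosome 10, 117688875 to 117710758, - strand), the ubiquitin ligase gene, rose in 3 steps. Its 2 h libraries held 3258 and 3237, against 2475 and 2434 in untreated cells, and the groups did not overlap. The log2 change was 0.40 ± 0.09 (limma adjusted p = 0.0077), and without 2 h replicate 2 it was 0.41 and did not pass (adjusted p = 0.063, with 0.0042 to 0.063 over all alternatives). The second step came between 2 and 4 h. Values were 5755 and 6051 after 4 h, 5334 and 5218 after 6 h, and 6003 and 5962 after 12 h. All of these were above the 2 h libraries, and 4 h against 2 h gave 0.86 ± 0.09 (log2 ± SE, limma adjusted p = 0.00017). Over 4 to 12 h Mdm2 stood 2.15- to 2.44-fold above untreated cells.

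The third step of Mdm2 was at 1 day. Values of 8883 and 7086 after 1 day, and of 7720 and 7623 after 2 days, were all above those of 12 h. The change from 12 h to 1 day was 0.41 ± 0.09 (log2 ± SE, limma adjusted p = 0.0038), and it was 0.24 without 1 day replicate 1, still called. With the 2 groups fitted alone the call was lost (adjusted p = 0.075, with 0.00021 to 0.075 over all alternatives). Mdm2 was then 3.23-fold above untreated cells at 1 day (log2 change 1.69) and 3.12-fold at 2 days (log2 change 1.64). The 2-day value against 1 day was -0.05, with a 95% interval from -0.23 to 0.14.

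Mdm4 (ENSMUSG00000054387, chromosome 1, 132959484 to 133030561, - strand), the MDM2 relative, was highest from 4 to 12 h. Its 2 h libraries held 5972 and 6254, against 4267 and 4910 in untreated cells. The 2 groups did not overlap, but the log2 change of 0.42 ± 0.15 did not pass (limma adjusted p = 0.08). This SE is shared by all comparisons of Mdm4 and includes the spread between the 1-day replicates. With the 2 groups fitted alone the change did not pass either (limma adjusted p = 0.07). Values were 8608 and 8533 after 4 h, 8756 and 8590.3 after 6 h, and 8609 and 8619.9 after 12 h. These 6 libraries all lay between 8533 and 8756, at 1.87- to 1.89-fold above untreated cells, and the change at 4 h was 0.90 ± 0.15 (log2 ± SE, limma adjusted p = 0.0014).

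At 1 day the replicates of Mdm4 parted, at 8014 and 5138, a ratio of 1.56 that no other member reached in any group. The mean was 0.42 below that of 12 h on the log2 scale (log2 change -0.42 ± 0.15, limma adjusted p = 0.048), but without 1 day replicate 2 the change was -0.10 and was not called, and without replicate 1 it was -0.75. The call was also lost without either 12 h library, with the 2 groups fitted alone, with replicate as a block and with the length and GC trends removed (-0.35). Against untreated cells the 1-day change was 0.49 ± 0.15 (log2 ± SE, limma adjusted p = 0.024), and it was 0.81 without 1 day replicate 2. It was no longer called without 1 day replicate 1 (0.17), without untreated replicate 1 (0.39) or with the 2 groups fitted alone. The 2-day libraries, at 5667 and 6358, were both below all libraries of 4 to 12 h and both above untreated cells. Their change against untreated cells was 0.39 ± 0.15 (log2 ± SE, limma adjusted p = 0.0499), a call that was lost under 8 of 13 alternatives.

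Ccng1 (ENSMUSG00000020326, chromosome 11, 40748552 to 40755311, - strand), the cyclin G1 gene, had the widest range of the members. Its 2 h libraries held 5375 and 5639.6, against 4749.6 and 4589 in untreated cells, with no overlap. The log2 change of 0.24 ± 0.07 passed (limma adjusted p = 0.028), but not without untreated replicate 2 (0.21), without 2 h replicate 1 (0.27), without 2 h replicate 2 (0.20) or with the 2 groups fitted alone. With per-library trends of length and GC content removed it was -0.12 and was not called. The transcripts of Ccng1 have a GC content of 37.4%, and 70 of 13286 tested genes have less, so that trend rests on few genes at this end. Mdm2 at 2 h was at 0.38 with the same trends removed and kept its call.

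From 4 h on Ccng1 was high in every auxin library. The values were 9811 and 10109.6 after 4 h, 11289 and 10976 after 6 h, 12054 and 11422 after 12 h, 13761 and 13406 after 1 day, and 11592 and 11056 after 2 days. The change from 2 to 4 h was 0.85 ± 0.07 (log2 ± SE, limma adjusted p = 2.2e-05), and at 1 day Ccng1 was 2.91-fold above untreated cells (log2 change 1.54, limma adjusted p = 5.8e-09). From 12 h to 1 day it changed by 0.21 ± 0.07 (log2 ± SE, limma adjusted p = 0.027), which did not pass without 12 h replicate 1 (0.25), 12 h replicate 2 (0.17) or 1 day replicate 1 (0.19), or with the 2 groups fitted alone. With the length and GC trends removed it was 0.55 and was called. From 1 to 2 days it changed by -0.26 ± 0.07 (log2 ± SE, limma adjusted p = 0.032). That direction turned to 0.29, also called, with the length and GC trends removed, and the call was lost without 1 day replicate 1 (-0.24), 2 days replicate 1 (-0.30) or 2 days replicate 2 (-0.23), with upper quartiles (-0.22) and with the 2 groups fitted alone. At 2 days against untreated cells Ccng1 was at 1.28 on the log2 scale, and at 1.93 with the trends removed, called both ways.

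Ppm1d (ENSMUSG00000020525, chromosome 11, 85311244 to 85347066, + strand), the WIP1 phosphatase gene, had a low rise that was called from 4 h to 1 day. Values were 721 and 646 in untreated cells, 774 and 793 after 2 h, and 1034 and 1082 after 4 h. The change at 4 h was 0.63 ± 0.09 (log2 ± SE, limma adjusted p = 0.00054), or 1.55-fold. Values of 956 and 923 after 6 h, 922 and 963 after 12 h, and 987 and 983 after 1 day were all below those of 4 h and above those of untreated cells. The change from 4 to 6 h did not pass (log2 change -0.17, limma adjusted p = 0.72), and 1 day was not tested against 4 h. The change at 2 h, 0.20 ± 0.09, did not pass (limma adjusted p = 0.16).

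At 2 days Ppm1d stood at 808 and 707, overlapping untreated cells, and its change of 0.15 had a 95% interval from -0.05 to 0.34. Against 1 day its log2 change was -0.38 ± 0.09 (log2 ± SE, limma adjusted p = 0.026), a call that was lost without 2 days replicate 2 (-0.29) and when the 2 groups were fitted alone. At 1 day the change against untreated cells was 0.53 ± 0.09 (log2 ± SE, limma adjusted p = 0.00058), which did not pass when the 2 groups were fitted alone. At 2 days Ppm1d was thus near its untreated level while Mdm2 and Ccng1 were 3.12- and 2.42-fold above theirs.

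Comparisons within auxin treatment do not use the means of the untreated libraries, but their SEs come from the fit of all 16 libraries, untreated ones included. From 2 to 4 h 3 of 5 members were called higher, Mdm2, Ccng1 and Ppm1d, against 1.77% of all tested genes. From 2 to 6 h they were 2, Mdm2 and Ccng1 (4.45% of all tested genes), and from 2 to 12 h 4, all but Trp53 (10.9%). The values of Mdm4 in these comparisons were 0.49, 0.50 and 0.50 on the log2 scale. Mdm4 at 4 and 6 h and Ppm1d at 6 h passed in separate fits of each pair of groups, and also once the trends of length and GC were removed. Leaving out either library of 2 h or of the later time ended the Ppm1d call at 4 h (0.40 to 0.47) and the calls of Mdm4 (0.46 to 0.53) and Ppm1d (0.24 to 0.30) at 12 h, while those of Mdm2 and Ccng1 held throughout.

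The later steps were smaller or later. From 4 to 6 h none of the 5 was called by limma, against 0.0374% of all tested genes in either direction, and 1, Ccng1, had an unadjusted p under 0.05. From 6 to 12 h none was called, against 6.48%, and none had an unadjusted p under 0.05, although Mdm2 passed when the 2 groups were fitted alone (0.18). From 12 h to 1 day Trp53, Mdm2 and Ccng1 were called higher (16.6% of all tested genes were) and Mdm4 lower (13.9%). From 1 to 2 days Ccng1 and Ppm1d were called lower (4.07%).

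**Figure D2:**
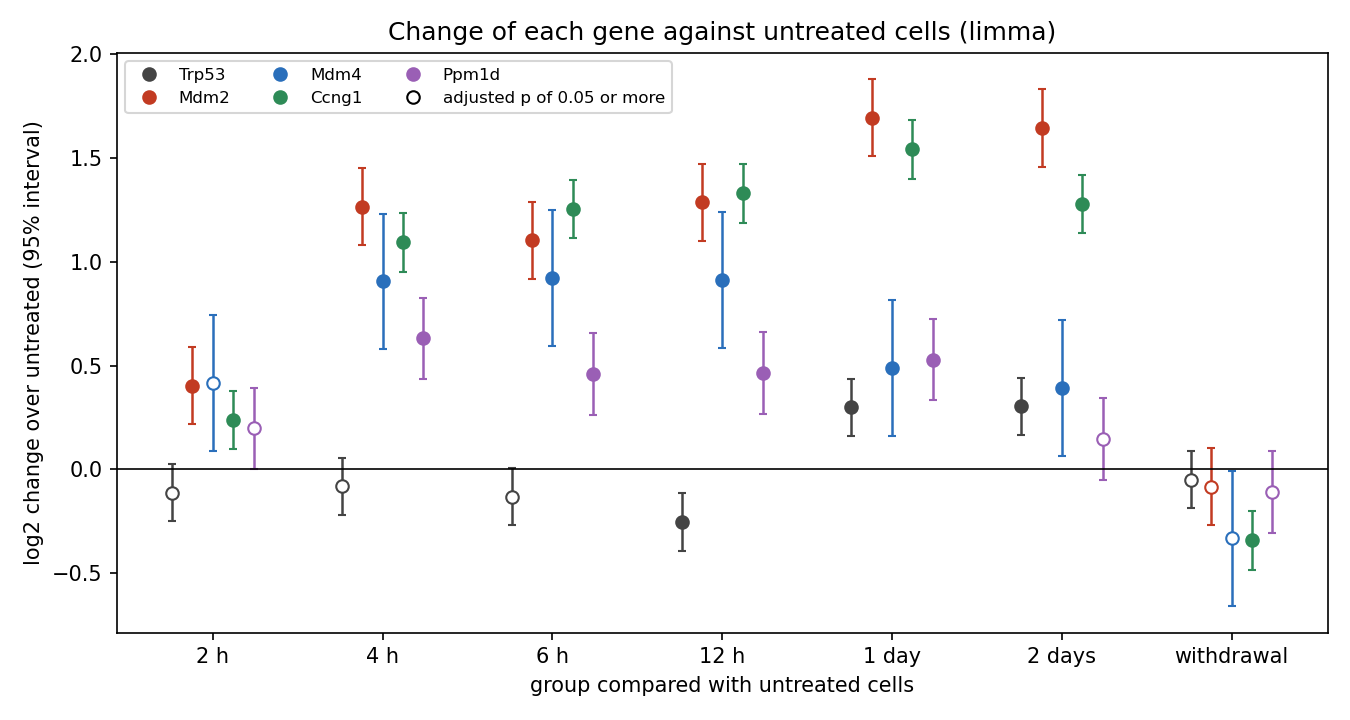
Log2 change of each gene against untreated cells in the 7 auxin and withdrawal groups, as points with 95% intervals from limma, on a linear axis of log2 units. Filled points passed at an adjusted p below 0.05 and open points did not. Mdm2 and Ccng1 stand at 1.09 to 1.69 from 4 h to 2 days, Mdm4 is highest from 4 to 12 h, and Trp53 lies below 0 from 2 to 12 h, at 0.30 at 1 and 2 days and at -0.05 after withdrawal.

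After withdrawal the members returned to or below their untreated levels. Against 2 days of auxin all 5 were called lower by limma, against 19.1% of all tested genes. Mdm2 was at 2421 and 2219 after withdrawal, against 7720 and 7623 at 2 days (log2 change -1.73 ± 0.09, adjusted p = 1.6e-08). Ccng1 was at 3472 and 3906 after withdrawal, against 11592 and 11056 at 2 days (log2 change -1.62 ± 0.07, adjusted p = 3.4e-09). Mdm4 was at 3319 and 3982 after withdrawal, against 5667 and 6358 at 2 days (log2 change -0.72 ± 0.15, adjusted p = 0.0018). For these 3 genes the withdrawal libraries lay below every other library of the series, for Mdm2 by a narrow margin below the untreated 2434.

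Trp53 changed by -0.35 ± 0.06 against 2 days (log2 ± SE, limma adjusted p = 0.00063). Ppm1d was at 609 and 659 after withdrawal, against 808 and 707 at 2 days (log2 change -0.25 ± 0.09, limma adjusted p = 0.039). The Ppm1d call was lost without 2 days replicate 1 (-0.16), withdrawal replicate 1 (-0.20) or withdrawal replicate 2 (-0.31), with trimmed means of M values (-0.23) and with the 2 groups fitted alone. The calls of the other 4 genes held under every alternative.

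Against untreated cells 1 member was called after withdrawal, Ccng1, which was lower, against 1.07% of all tested genes called lower. Its libraries of 3472 and 3906 were both below the untreated 4749.6 and 4589 (log2 change -0.34 ± 0.07, limma adjusted p = 0.014). The call was lost without withdrawal replicate 1 (-0.26) and with the 2 groups fitted alone. Mdm4 also lay below both untreated libraries after withdrawal, with a log2 change of -0.33 ± 0.15 that did not pass (limma adjusted p = 0.28). The log2 changes of Mdm2, Ppm1d and Trp53 were -0.08, -0.11 and -0.05, with 95% intervals from -0.27 to 0.10, from -0.30 to 0.09 and from -0.19 to 0.09.

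The members differed in height and in the time of their highest mean. The ratio of the highest to the lowest group mean was 3.68 for Ccng1, 3.44 for Mdm2, 2.38 for Mdm4, 1.67 for Ppm1d and 1.47 for Trp53. The highest mean was at 4 h for Ppm1d, 6 h for Mdm4, 1 day for Mdm2 and Ccng1 and 2 days for Trp53. Some of these first places were shared: the libraries of Mdm2 at 1 and 2 days overlapped, as did those of Trp53, and the means of Mdm4 at 4, 6 and 12 h differed by less than their larger SD. With length and GC trends removed Ccng1 was highest at 2 days instead (0.29 above 1 day on the log2 scale). Its fall from 1 to 2 days lost the call under 5 other alternatives. For Ppm1d the 4 h libraries lay above those of 1 day, but that difference was not tested. The Ppm1d change from 4 to 6 h did not pass (log2 change -0.17, limma adjusted p = 0.72). At 4 h, the time of its own highest mean, Ppm1d had by definition made its whole rise. Mdm4 had then made 97.5% of its own, Mdm2 62.4% and Ccng1 59.4%, the last with its mean at 1 day as the highest.

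Divided by mean annotated transcript length, which ignores which isoforms were used, levels in untreated cells were 4840 normalized counts per kb for Trp53, 2164 for Ccng1, 2126 for Mdm4, 1457 for Mdm2 and 373 for Ppm1d. At 1 day they were 6295 for Ccng1, 5949 for Trp53, 4739 for Mdm2, 3047 for Mdm4 and 537 for Ppm1d. Per kb, Ccng1 and Mdm4 overlapped in untreated cells, Ccng1 lay above Trp53 in both libraries of 1 day, and Ppm1d was lowest at both times.

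Ratios within a library do not depend on how libraries were scaled, and they are given here as values that were not tested. Mdm2 over Trp53 was 0.268 and 0.291 in untreated cells, 0.389 and 0.41 after 2 h, 0.705 and 0.715 after 4 h, 0.64 and 0.676 after 6 h, 0.788 and 0.835 after 12 h, 0.671 and 0.803 after 1 day, 0.696 and 0.718 after 2 days, and 0.258 and 0.288 after withdrawal. The mean ratio was highest at 12 h, when Trp53 was lowest, although the highest mean of Mdm2 was at 1 day.

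Mdm2 over Mdm4 separated the days from the hours. It was 0.496 and 0.58 in untreated cells, 0.518 and 0.546 after 2 h, between 0.607 and 0.709 from 4 to 12 h, 1.11 and 1.38 after 1 day, 1.2 and 1.36 after 2 days, and 0.557 and 0.73 after withdrawal. Both 1-day libraries lay above all libraries of other groups except those of 2 days, while the Mdm4 level of 1 day replicate 1 was close to that of 12 h. The mean of Ppm1d over Mdm2 was lower at each later time to 2 days, but the libraries of 4 and 6 h overlapped. It was 0.266 and 0.291 in untreated cells, 0.179 and 0.18 after 4 h, and 0.177 and 0.179 after 6 h. It was 0.111 and 0.139 after 1 day, 0.0927 and 0.105 after 2 days, and 0.252 and 0.297 after withdrawal. Of the 4 ratios computed, Ccng1 over Mdm2 varied least, between 1.43 and 2.12 over all 16 libraries.

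**Figure D3:**
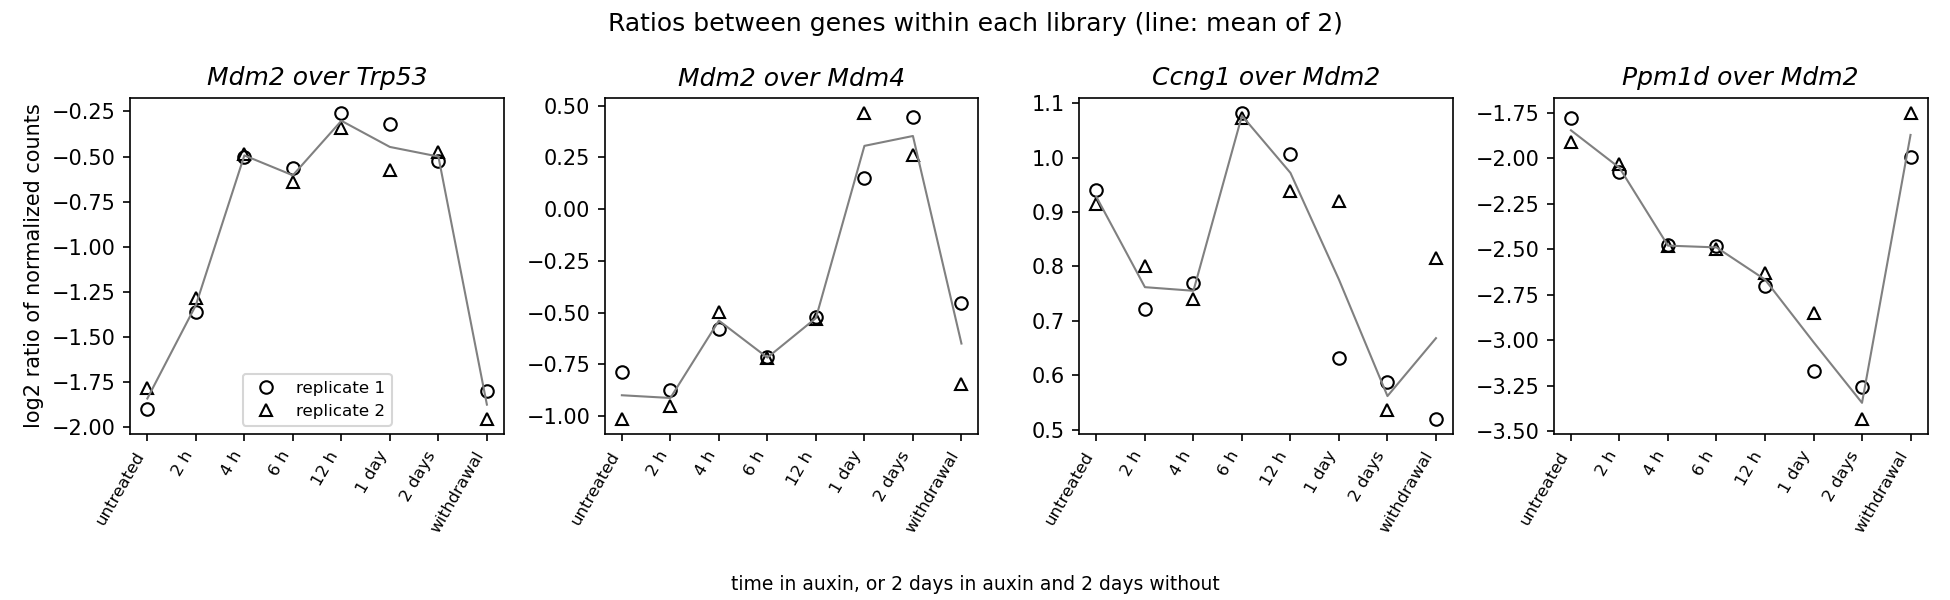
Log2 ratio of normalized counts between 2 genes within each library (circles, replicate 1; triangles, replicate 2) by group, with a line through the means of 2 libraries, for Mdm2 over Trp53, Mdm2 over Mdm4, Ccng1 over Mdm2 and Ppm1d over Mdm2. Mdm2 over Mdm4 is above 0 in the 4 libraries of 1 and 2 days, where the ratio is 1.11 to 1.38, and below 0 in the other 12.

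Other genes of the pathway were read from lists. Of 57 other p53 targets 54 were tested. Called higher and lower against untreated cells were 5 and 7 after 2 h, 31 and 2 after 4 h, 33 and 3 after 6 h, 37 and 4 after 12 h, 40 and 1 after 1 day, 40 and 1 after 2 days, and 0 and 3 following withdrawal. Of all tested genes 8.45% were called lower at 2 h, 10.2% at 4 h, 13.4% at 6 h, 17.7% at 1 day and 23.8% at 2 days, and 1.72% were called higher after withdrawal. The median log2 change of the list was -0.04 at 2 h, 0.54 at 4 h and 1.02 at 1 day, against medians of all tested genes between -0.012 and 0.023. Cdkn1a, the cell cycle inhibitor p21, averaged 1530.1 in untreated cells, 1726 at 2 h, 2732 at 4 h and 5456 at 1 day (log2 changes against untreated cells 0.17, 0.84 and 1.83, the first not called). From 2 to 4 h 27 of the 54 were called higher and none lower (0.681% of all tested genes were lower), and after withdrawal 41 were called lower than at 2 days and 1 higher (22.2% of all tested genes were higher).

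Of 21 tested ubiquitin ligases and cofactors that act on p53 or MDM2, 4 were called higher and 6 lower at 1 day, against 15.9% and 17.7% of all tested genes, and the median log2 change was -0.05. Rchy1, which encodes the p53 ligase PIRH2 and is a p53 target itself, was higher at 1369 against 680.2 (log2 change 1.01), and Arih2, which encodes the ligase ARIH2, was higher at 5999.6 against 3289.7 (log2 change 0.87). Trim28, a MDM2 cofactor, was lower at 32399.6 against 41399 (log2 change -0.35), and Topors, a ligase of p53, lower at 2517 against 3289 (log2 change -0.39). Of 18 kinases that phosphorylate p53, MDM2 or MDM4, 0 were called higher and 7 lower at 1 day, with a median log2 change of -0.17. At 2 days 2 were called higher and 6 lower, against 21.0% and 23.8% of all tested genes, with a median of 0.01. Among the lower at 2 days were Chek1 (747 against 1877), Plk1 (1774 against 4098) and Aurka (1338 against 2325), which also serve the cell cycle, and among the higher Csnk1e (2141 against 1529).

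Of 21 nucleolar and 5S RNP partners of MDM2 11 were in the table, and RPL5 and RPL11, the best known of them, were not analysed here. Called higher and lower were 2 and 0 after 2 h, 2 and 0 after 4 h, and 2 and 6 after 6 h. They were 1 and 6 after 12 h, 0 and 5 after 1 day, and 0 and 6 after 2 days. The median log2 change at 2 days was -0.21. The shares of all tested genes called higher and lower were 6.75% and 8.45% at 2 h and 8.86% and 10.2% at 4 h. They were 10.9% and 13.4% at 6 h and 14.8% and 18.3% at 12 h. At 1 day they were 15.9% and 17.7%, and at 2 days 21.0% and 23.8%. Ncl, the nucleolin gene, averaged 41676 in untreated cells, 58111 at 4 h, 54530.2 at 6 h and 20973 at 2 days (log2 changes against untreated cells 0.50, 0.41 and -0.97, all called). Gnl3, the nucleostemin gene, averaged 4788 in untreated cells, 4700.3 at 4 h, 3933 at 6 h and 3113 at 2 days (log2 changes against untreated cells -0.03, -0.28 and -0.62, the first not called). Npm1, the nucleophosmin gene, averaged 37794 at 2 days, against 54085 in untreated cells (log2 change -0.52).

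**Figure D4:**
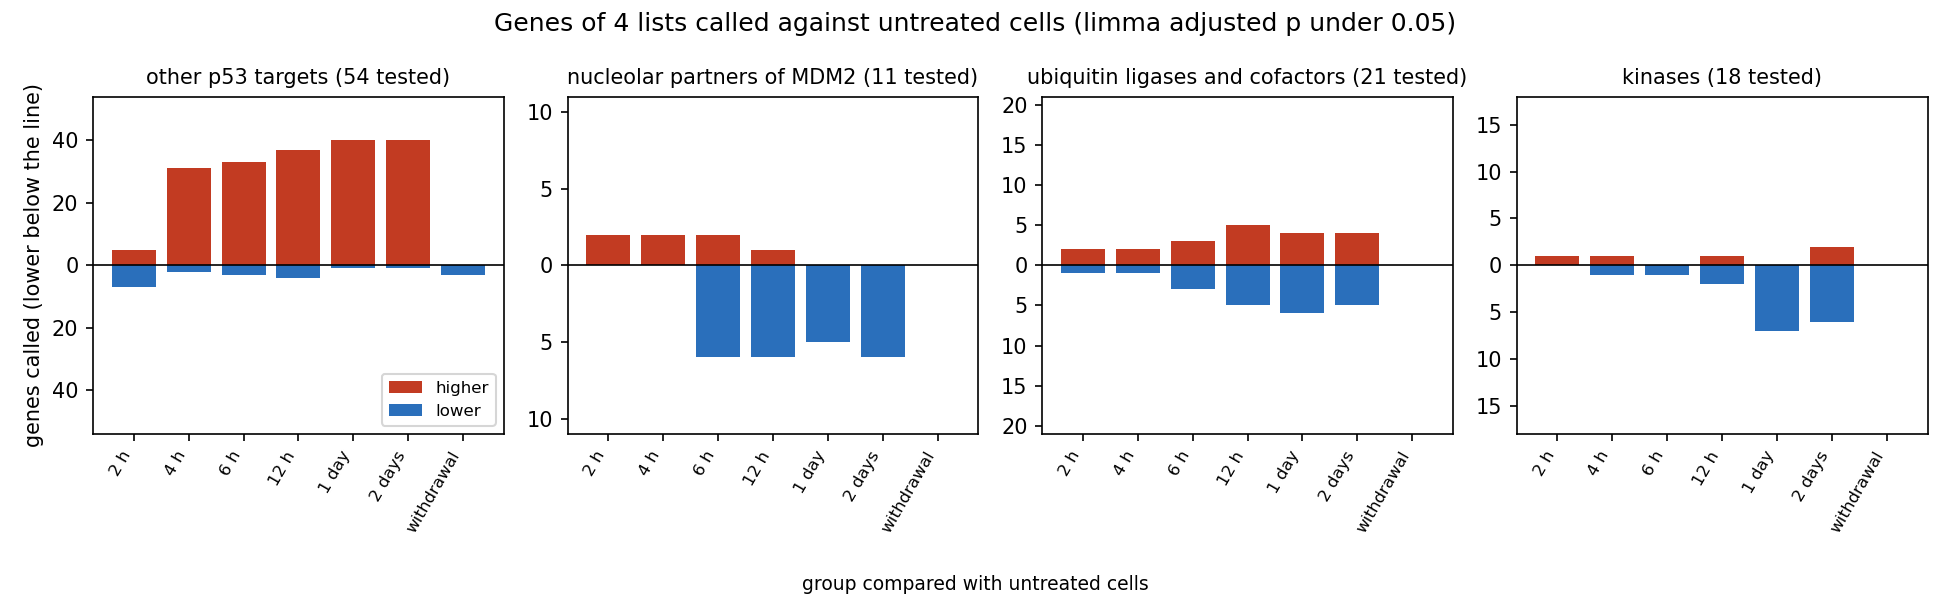
Number of genes called higher (above the line) and lower (below it) against untreated cells by limma at an adjusted p below 0.05, for 4 lists, with each vertical axis running to the number of genes tested in that list. Other p53 targets go from 5 of 54 higher at 2 h to 31 at 4 h and 40 at 1 and 2 days. The other lists, of 21 ligases and cofactors, 18 kinases and 11 nucleolar partners, have at most 5 genes higher, the ligases at 12 h. Of all tested genes 6.75% were called higher at 2 h, 8.86% at 4 h, 14.8% at 12 h, 15.9% at 1 day and 21.0% at 2 days.

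The 5 genes most like each member were found by the root mean square difference of centred log2 profiles over the 16 libraries. They were sought among 10289 genes with a mean of at least 50, and genes with predicted or accession-like names were left out. Nearest to Mdm2 was Ccng1, at 0.175, and Tnfrsf10b, the mouse TRAIL death receptor gene, followed at the same distance, then Trim11, Dcun1d3 and Nat6. Nearest to Ccng1 were Cdc42bpg (0.142), Btbd19 (0.158) and Pidd1 (0.164), the gene of a death domain protein of the PIDDosome, then Mdm2 and Map3k14. For Ppm1d they included Gtse1 (0.105) and Aen (0.12), both p53 targets. Of the 5 neighbours of each, 1 of Mdm2 (Tnfrsf10b), 1 of Ccng1 (Pidd1) and 3 of Ppm1d (Gtse1, Aen and Ckap2) are on the list of other p53 targets. That list holds 54 of the 13355 tested genes, and its share of the 10289 genes compared was not computed. It leaves out the members, so Mdm2 and Ccng1, neighbours of each other, could not be counted.

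Nearest to Mdm4 were the zinc finger genes Zfp41 (0.152) and Zfp809 (0.181), then Inf2, Itpripl1 and Arhgap35, and 0 of the 5 are on that list, as for Trp53; no difference between members in these counts was tested. Zfp41 averaged 358 in untreated cells, 518 at 4 h, 634 at 12 h, 446 at 2 days and 281 after withdrawal. Nearest to Trp53 was Rpsa (0.0603), the gene of a small-subunit ribosomal protein, at 42398 in untreated cells, 36899 at 12 h, 51452 at 1 day and 42485 after withdrawal. Profiles of small range, such as that of Trp53, have small distances to many genes, so distances are to be compared within a member and not between members.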

How the data were processed

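The table of the series was used, with 16 libraries in 8 groups of 2 as the labels name them. Its values are a signal, normalized counts that the authors had divided by a factor per library before they were deposited, as judged from the name of the table and from values that are not whole. Per the submitters' processing notes, Trim Galore, STAR, RSEM and DESeq2 were used with mm10, with no version or role named there. RSEM divides reads between isoforms and similar genes, so values need not be whole reads. The share within 0.1 of a whole multiple of 1 step was 72.5% to 99.1% of low values in single-transcript genes, so counts could not be recovered, and a count test was not run.

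Values were analysed as log2(value + 1), which understates changes of low genes. Genes with a mean of at least 10 entered 1 fit in limma 3.58.1 (R 4.3.3) with a mean per group, an intensity trend and 8 residual degrees of freedom. Each comparison had its own Benjamini-Hochberg adjustment over all tested genes, and adjusted values below 0.05 were called. Intervals are 95%. The code was tested on simulated data. Gene positions and transcript lengths are from GENCODE M21, with 14467 identifiers found and 85 not, and promoter windows are from RefSeq. The members, lists and tests were chosen with earlier results of these data known. Named genes are the members, the 5 nearest profiles of each, and up to 4 genes per list with the smallest F-test p. Alternatives tried were a pseudocount of 0.5 or of 5, a filter at a mean of 50 or none, trimmed means of M values, upper quartiles, replicate as a block, the 2 groups fitted alone, 2 h in place of untreated, each library left out, and, chosen after seeing the data, removal of length and GC trends.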

Additional observations from a re-analysis of the deposited data

How the results depend on the processing

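Of 45 called changes of the 5 genes over 15 comparisons, 25 kept their direction and their call under every alternative run, among them all those of Mdm2 and Ccng1 from 4 h to 2 days against untreated cells. Of 598 alternative values of called changes 65 lost the call. Of 198 alternative counts of members called, 37 moved by 1 call within a factor of 1.5, for example to 3 at 2 days against untreated and 4 after withdrawal against 2 days with trimmed means of M values, and 4 at 12 h against untreated with the 2 groups fitted alone. Another 24 moved further, as follows. With upper quartiles it was 1 at 2 days against 1 day. With length and GC trends removed it was 1 at 2 h against untreated and 4 at 6 h against 2 h. With the 2 groups fitted alone it was 1 at 2 h, 2 at 1 day and 0 after withdrawal against untreated, 4 at 6 h against 2 h, 1 at 12 h against 6 h, 1 at 1 day against 12 h and 0 at 2 days against 1 day. At 6 h it was 2 when 2 h took the place of untreated cells. Leaving out 1 library gave 0 to 2 at 2 h and 0 to 1 after withdrawal against untreated, 2 at 12 h against 2 h, 2 to 3 at 1 day against 12 h and 0 to 3 at 2 days against 1 day.

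Reversed directions were, for called values, those of Ccng1 with length and GC trends removed, -0.12 at 2 h against untreated and 0.29 at 2 days against 1 day, as given above. For values near 0 that were not called, Trp53 at 2 days against 1 day was -0.0077 with trimmed means and -0.0284 with trends removed, at 6 h against 2 h 0.0142 with upper quartiles, at 4 h against 2 h -0.0161 with trends removed, and at 4 h 0.032 with 2 h in place of untreated. Ppm1d at 12 h against 6 h was -0.0023 with trends removed. With 1 library left out, uncalled values ran from -0.21 to 0.11 for Mdm2 and from -0.42 to 0.22 for Mdm4 at 2 days against 1 day, where Mdm4 was called lower without 1 day replicate 2. Those of Mdm4 and Ppm1d at 12 h against 6 h ran from -0.0235 to 0.00405 and from -0.0267 to 0.036. Those of Trp53 ran from -0.0289 to 0.0383 at 2 days against 1 day, from -0.0111 to 0.075 at 4 h and from -0.0623 to 0.0238 at 6 h against 2 h, and from -0.12 to 0.0215 after withdrawal against untreated.

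Replicate numbers did not pair the samples: over 28 pairs of groups the correlation of deviations was between -0.06 and 0.07. With replicate as a block 3 of 75 values lost a call, Mdm4 at 2 days against untreated (0.39), Ppm1d at 12 h against 2 h (0.27) and Mdm4 at 1 day against 12 h (-0.42), and none gained one. With 2 libraries a group a left-out library leaves 1, which was assumed to vary like the other groups. There were 8 residual degrees of freedom, SEs were 0.06 to 0.15 on the log2 scale, and counting error was at most 4.29% in a library. How much of each SE depth accounts for was not tested.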

Other observations

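Of 15 tested relatives of the 5 genes, none of them a listed feedback gene, 6 were called higher and 3 lower at 2 days against untreated cells (limma, adjusted p below 0.05), when 21.0% and 23.8% of all tested genes were. Trp73, the gene of the p53 relative p73, averaged 108 in untreated cells, 275 at 4 h, 423 at 6 h, 417 at 1 day and 324 at 2 days (log2 changes against untreated cells 1.36, 1.98, 1.95 and 1.59, all called), and 69.1 after withdrawal. Ppm1j, a phosphatase gene of the Ppm1d family, was at 44.3 at 1 day and 38.6 at 2 days, against 149.6 in untreated cells (log2 changes -1.72 and -1.93, both called). Ccng2, the second cyclin G gene, averaged 216 at 2 days, against 112 in untreated cells (log2 change 0.94, called), and was not called at 4 h or 6 h. After withdrawal it averaged 197, still above both untreated libraries, and did not pass (log2 change 0.82 against untreated cells, limma adjusted p = 0.068).

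Of 9 PP2A subunit genes, the phosphatase with which cyclin G1 works, 1 was called higher and 3 lower at 2 days, among them Ppp2r5c (2789 against 2161, log2 change 0.37) and Ppp2r1b (1463 against 2295, log2 change -0.65). Of 17 acetyl and methyl transferases and deacetylases that act on p53, 3 were higher and 5 lower at 2 days. The shares of both lists are to be read against the same 21.0% and 23.8% of all tested genes. Smyd2, a p53 methyltransferase gene, was at 1201 against 538 (log2 change 1.19), and Sirt1, a p53 deacetylase gene, at 1424 against 2328 (log2 change -0.71). After withdrawal none of these 3 lists had a gene called against untreated cells by limma, and 3 relatives, 0 PP2A genes and 2 transferases or deacetylases had an unadjusted p under 0.05.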
